A study of Mus musculus with 6 samples.

Results

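The genes described here encode 8 sensors of microbial molecules, the Toll-like receptors Tlr1, Tlr2, Tlr3, Tlr4, Tlr5 and Tlr9 and the NOD receptors Nod1 and Nod2, together with the adaptor Myd88. They were taken by symbol, 9 genes of the 51912 in the gene tables. The rule uses no measured value, though the members were chosen with earlier results of these data known. The RNA was from epithelial cells sorted out of the small intestine of C57BL/6 mice, with 2 libraries a group. AF (antigen free) mice, replicates 2 and 3, received foreign antigens neither from microbes nor from food. GF (germ free) mice, replicates 1 and 3, carried no microbiota. SPF (specific pathogen free) mice, replicates 3 and 4, were kept without named pathogens only. AF and GF mice therefore share the absence of a microbiota. By the group names AF mice differ from GF mice in food antigens, and any other difference between their diets cannot be told apart from that. The labels give neither age nor sex of the mice, neither the make-up of the diets nor any pooling of animals, and nothing there says that the 2 libraries of a group came from separate animals. P-values thus measure only the spread between these libraries.

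Toll-like receptors are membrane proteins that bind conserved microbial molecules. Some sit on the cell surface and read cell wall components or flagellin, and others sit in endosomes and read nucleic acids. Most of them signal through MyD88 to NF-kB, while TLR3 uses the adaptor TRIF. NOD1 and NOD2 lie in the cytosol, bind fragments of bacterial peptidoglycan and signal through the kinase RIPK2. In the gut these pathways are known for their part in the epithelial production of antimicrobial proteins and in the tolerance of resident bacteria.

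The libraries held 16109470 to 19417012 counts, of which the 9 genes together held 479 to 1189. Levels across libraries are given as CPM (counts scaled to a fixed TMM-normalised library total), where 1 count was worth 0.0365 to 0.0785 CPM. The detection floor was set at 3 counts, or 0.109 to 0.236 CPM depending on the library. The 8 epithelial markers, such as Epcam and Vil1, were detected in every library and summed to 7624 to 9785 CPM. Marker sums of other cells were 14.2 to 349 CPM for T cells and intraepithelial lymphocytes, 6.05 to 23.95 CPM for macrophages and dendritic cells, and at most 2.99 CPM for the lists of B and plasma cells, neutrophils, stroma and endothelium. SPF replicate 4 stood apart in its epithelial make-up, with Paneth, goblet and crypt marker sums of 41.7, 2807 and 54.7 CPM, against 926 to 5631, 11930 to 29180 and 202 to 531 CPM in the other 5 libraries. Its sum of brush border enterocyte markers was the highest, at 52500 CPM against 17090 to 29050 CPM in the other 5. Both SPF libraries held 0 counts of the Y-linked genes Ddx3y, Eif2s3y, Kdm5d and Uty, which had 53 to 654 counts each in the AF and GF libraries, so sex and group cannot be told apart in any comparison with SPF. Xist, expressed from the inactive X chromosome of females, had 0 and 3 counts in AF, 3 and 218 in GF, and 2831 and 1408 in SPF. GF replicate 3 thus held Xist beside Y-linked transcripts, which also touches AF versus GF, and its part there was not tested. The tables of each group also carry a date-like mark of their own, and date and group cannot be told apart either.

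In TPM, which scales for transcript length and so lets genes be compared within a library, Myd88 was the most abundant of the 9 genes in each of the 6 libraries and Tlr3 was second in each. Myd88 stood at 8.91 and 10.6 TPM in AF, 18.0 and 11.1 TPM in GF, and 18.5 and 10.8 TPM in SPF. Tlr3 stood at 2.78 and 3.82 TPM in AF, 9.92 and 5.29 TPM in GF, and 9.90 and 6.74 TPM in SPF. Nod1 held rank 3 in 5 libraries and rank 4 in SPF replicate 3, at 0.44 to 1.39 TPM. Below it Tlr1 (0.15 to 2.15 TPM), Nod2 (0.11 to 0.61 TPM), Tlr2 (0 to 0.63 TPM) and Tlr5 (0.07 to 0.39 TPM) overlapped and changed places from library to library. Tlr4 and Tlr9 were at the limit of detection, at up to 0.26 and 0.10 TPM. Measured per length, transcripts of the endosomal sensor of double-stranded RNA and of the adaptor thus exceeded those of every surface receptor in each library.

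**Figure D1:**
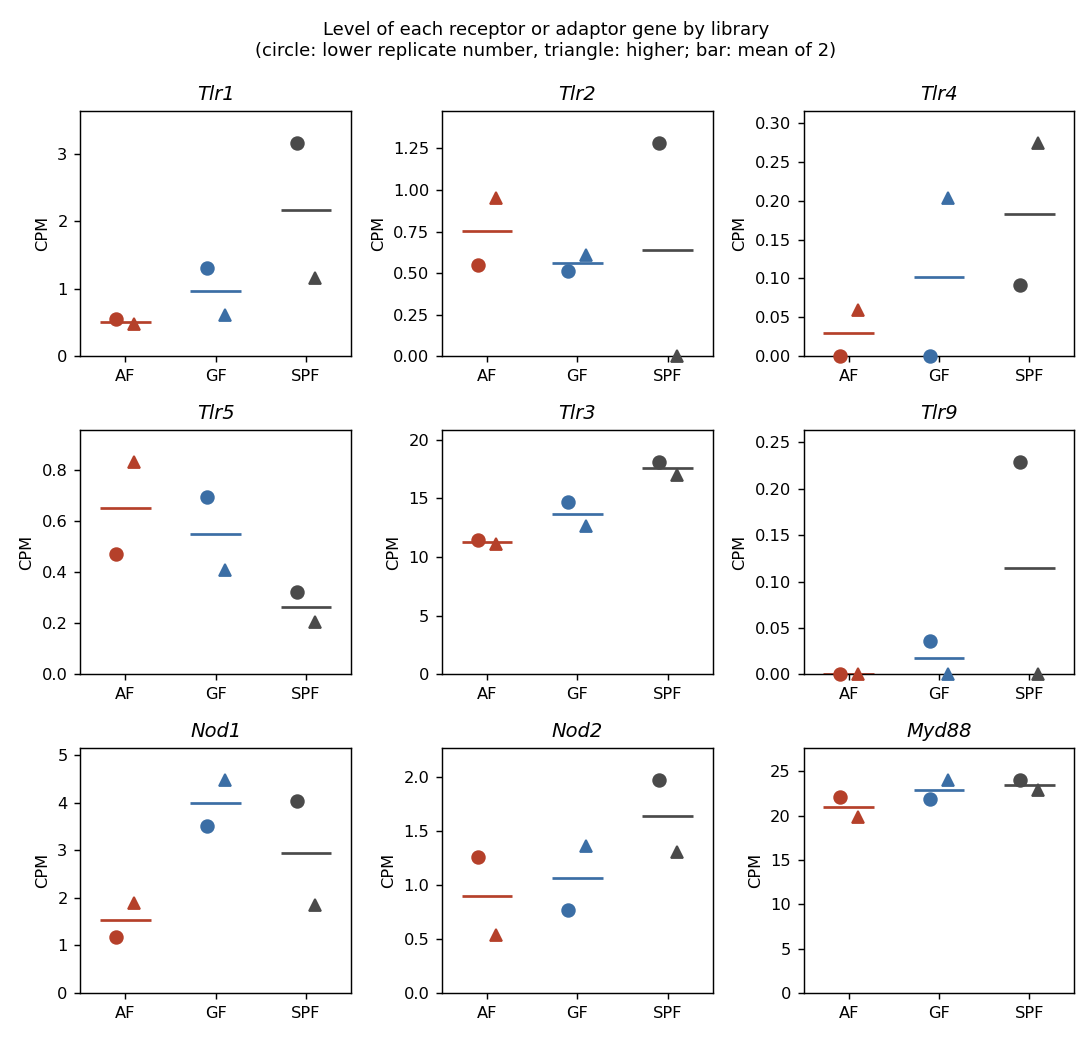
Level of the 8 receptor genes and Myd88 in each of the 6 libraries, in CPM on a linear axis that starts at 0 and has its own scale in each panel; circles and triangles are the lower and higher replicate number of a group and bars are means of 2 libraries. The groups do not overlap for Tlr3, whose libraries lie at 11.1 to 11.5 CPM in AF, 12.6 to 14.7 CPM in GF and 17.0 to 18.1 CPM in SPF, while Myd88 lies between 19.9 and 24.04 CPM throughout.

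None of the 9 genes passed edgeR's quasi-likelihood test at a Benjamini-Hochberg adjusted p below 0.05 in any comparison. Of the 9, 7 passed the low-count filter and were tested, and Tlr4 and Tlr9 were not. The test called few genes of any kind: 0.0147% of the 13644 genes tested in AF versus GF, 0.044% in AF versus SPF, 0.0147% in GF versus SPF and 0.0293% in the mean of AF and GF versus SPF. At an unadjusted p below 0.05, the 7 tested genes gave 1 in AF versus GF (Nod1, against a background of 3.6% of all genes), 2 in AF versus SPF (Tlr1 and Tlr3, background 11.3%), 0 in GF versus SPF (background 6.71%) and 2 in the mean of AF and GF versus SPF (Tlr1 and Tlr3, background 11.6%). A joint test over AF, GF and SPF called 0 of them (background 0.0293%) and gave 0 at an unadjusted p below 0.05 (background 7.33%), with Tlr3 lowest (edgeR adjusted p = 0.672). Of the 7, 5 had lower values in AF versus GF (52.9% of all genes did), 5 in AF versus SPF (49.1%), 5 in GF versus SPF (48.1%) and 6 in the mean of AF and GF versus SPF (49.3%). AF lay apart below GF for 3 of them (17.8% of all genes) and apart above for 0 (15.8%). AF lay apart below SPF for 4 (22.6%) and above for 1 (22%), and GF below SPF for 1 (17.1%) and above for 1 (16.8%). All 4 libraries of AF and GF lay below both of SPF for 1 (11.8%) and above both for 1 (11.5%). DESeq2, edgeR's likelihood ratio test and limma on log2 TPM also called 0 of them in every comparison.

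**Figure D2:**
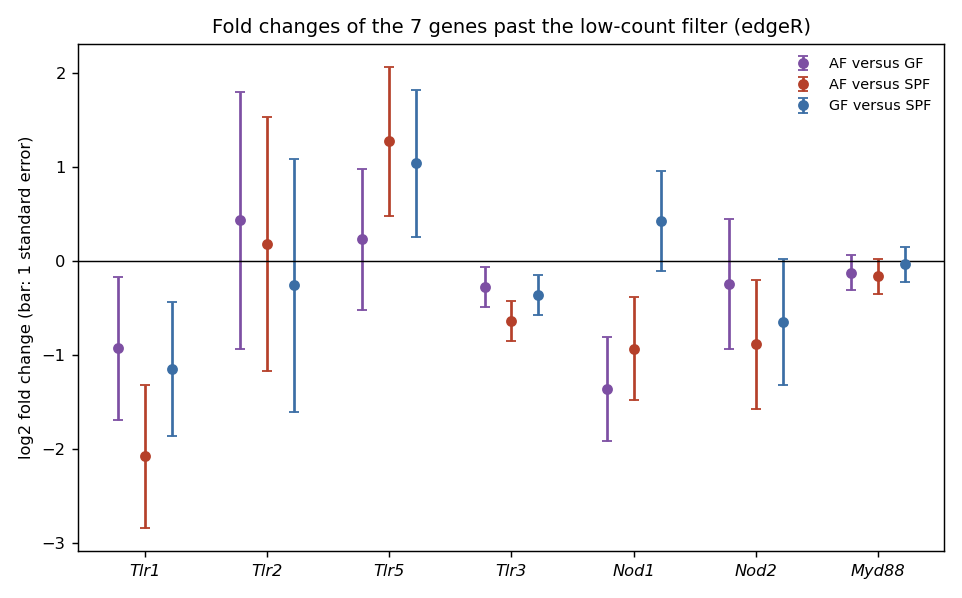
Log2 fold changes from edgeR, with 1 standard error, of the 7 genes that passed the low-count filter, for AF versus GF, AF versus SPF and GF versus SPF; 0 means equal levels. Tlr2, at 0 counts in 1 library, has standard errors of 1.35 to 1.37, and Myd88 has the smallest, 0.18 to 0.19.

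Among the surface receptors, Tlr1, which pairs with TLR2 to bind triacylated bacterial lipopeptides (ENSMUSG00000044827, GRCm38 chromosome 5, 64924679 to 64933563), had the largest fold changes. It measured 0.55 and 0.475 CPM in AF, 1.31 and 0.611 CPM in GF, and 3.16 and 1.17 CPM in SPF, on 7, 8, 36, 9, 69 and 17 counts. Both AF libraries lay below both GF and both SPF libraries, GF and SPF overlapped, and SPF replicate 3 stood alone at the top. The log2 fold change of Tlr1 was -2.08 (SE 0.76) in AF versus SPF (edgeR adjusted p = 0.405), -0.93 (SE 0.76) in AF versus GF and -1.15 (SE 0.71) in GF versus SPF. Without SPF replicate 3 it was -1.18 in AF versus SPF. The marker sum of T cells and intraepithelial lymphocytes was 19.1 and 14.2 CPM in AF, 37.6 and 349 CPM in GF, and 206 and 75.4 CPM in SPF. It was lowest in AF and higher in SPF replicate 3 than in SPF replicate 4, as Tlr1 was, while the GF libraries stood in the opposite order. The macrophage and dendritic cell sum shared these features. That sum was 6.05 and 6.30 CPM in AF, 10.8 and 23.95 CPM in GF, and 17.7 and 10.1 CPM in SPF. The part of either sum in the Tlr1 values was not tested. Tlr1 has a near relative in Tlr6, which had 3 and 2 counts in AF, 4 and 5 in GF and 0 in both SPF libraries. The uncertainty of splitting shared reads, as the authors' RSEM estimated it, was at most 2.82% of a member's count in libraries with 10 counts or more, a value reached by Tlr1.

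Tlr2, which reads bacterial lipoproteins with TLR1 or TLR6 (chromosome 3, 83836272 to 83841767), differed more inside SPF than between any groups. Its counts were 7 and 16 in AF, 14 and 9 in GF, and 28 and 0 in SPF. In CPM these were 0.55 and 0.951 in AF, 0.51 and 0.611 in GF, and 1.28 in SPF replicate 3, with SPF replicate 4 at 0 counts, which allows up to 0.206 CPM. SPF thus held the highest and the lowest library. The log2 fold change was 0.18 (SE 1.35) in AF versus SPF, -0.26 (SE 1.35) in GF versus SPF and 0.44 (SE 1.37) in AF versus GF. With library totals alone the sign in AF versus SPF turned, at -0.20. It also depended on which SPF library was used: in AF versus SPF it was -0.76 without SPF replicate 4 and 6.72 without SPF replicate 3, a value fitted against 0 counts. The goblet marker sum moved along with Tlr2 at its extremes, at 29180 CPM in SPF replicate 3 and 2807 CPM in SPF replicate 4. A sum of proliferation markers had the same extremes, at 282 and 59.3 CPM. Sums of crypt, Paneth, tuft and enteroendocrine markers were also lowest in SPF replicate 4. The part of any of these in the Tlr2 values was not tested. In bulk RNA, fewer cells of a type and less RNA per cell cannot be told apart.

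Tlr5, the receptor of flagellin (chromosome 1, 182954788 to 182976044), was the 1 receptor with higher values in both groups without a microbiota. It measured 0.471 and 0.832 CPM in AF, 0.693 and 0.407 CPM in GF, and 0.321 and 0.206 CPM in SPF. All 4 libraries of AF and GF lay above both SPF libraries, as 11.5% of all genes tested also did. The counts were small, 6 and 14 in AF, 19 and 6 in GF, and 7 and 3 in SPF, and the exact 95% Poisson interval of SPF replicate 3, 0.129 to 0.661 CPM, contained the values of AF replicate 2 and GF replicate 3. These intervals cover counting error only. The log2 fold change was 1.28 (SE 0.79) in AF versus SPF, 1.04 (SE 0.78) in GF versus SPF and 1.16 (SE 0.71) for the mean of AF and GF versus SPF (edgeR adjusted p = 0.573). In mice Tlr5 is known as a receptor of Paneth cells in the small intestine. The Paneth marker sum was 1049 and 2198 CPM in AF, 5631 and 926 CPM in GF, and 1387 and 41.7 CPM in SPF, with 0 of the 8 markers absent from a library. The Paneth sums overlapped between the groups. The goblet sums overlapped too, at 14030 and 12700 CPM in AF, 11930 and 16890 CPM in GF, and 29180 and 2807 CPM in SPF. Marker sums of tuft and enteroendocrine cells lay apart as Tlr5 did. The tuft cell sum was 304 and 284 CPM in AF, 147.5 and 201.5 CPM in GF, and 93.1 and 17.5 CPM in SPF. The enteroendocrine sum was 2495 and 3294 CPM in AF, 1569 and 3926 CPM in GF, and 1351 and 338.5 CPM in SPF. The part of any of these cells in the Tlr5 values was not tested.

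Tlr4, the receptor of lipopolysaccharide (chromosome 4, 66827584 to 66930284), had 0 and 1 counts in AF, 0 and 3 in GF, and 2 and 4 in SPF, and no fold is given. Its cofactors were present at low levels. Cd14, which hands lipopolysaccharide to the receptor, measured 1.57 and 1.31 CPM in AF, 1.86 and 1.90 CPM in GF, and 1.97 and 1.30 CPM in SPF. Ly96, the MD-2 subunit, measured 0.814 to 2.47 CPM over the 6 libraries. Both AF libraries lay below both GF libraries for Cd14, with a log2 fold change of -0.39 (SE 0.50, edgeR adjusted p = 1), and the other groups overlapped for both cofactors.

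Tlr3, the endosomal receptor of double-stranded RNA (ENSMUSG00000031639, chromosome 8, 45395665 to 45411080, minus strand), was the only one of the 7 tested genes whose 3 groups lay apart from each other, as those of 9.84% of all genes tested did in some order. It measured 11.5 and 11.1 CPM in AF, 14.7 and 12.6 CPM in GF, and 18.1 and 17.0 CPM in SPF, on 146 to 403 counts. The AF libraries were lowest, the GF libraries between, and the SPF libraries highest. Its log2 fold change stood at -0.64 (SE 0.21) in AF versus SPF, a 1.56-fold lower level (edgeR adjusted p = 0.389). It was -0.28 (SE 0.21) in AF versus GF, -0.36 (SE 0.21) in GF versus SPF and -0.50 (SE 0.18) in the mean of AF and GF versus SPF (edgeR adjusted p = 0.399). Leaving out any 1 library kept it between -0.69 and -0.59 in AF versus SPF. SPF replicate 4, poor in crypt, Paneth and goblet markers, had 17.0 CPM of Tlr3 beside 18.1 CPM in SPF replicate 3, and the part of cell make-up in the Tlr3 values was not tested.

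The scale matters for Tlr3 in AF versus GF. On log2(TPM + 0.1) the difference was -1.13 (limma adjusted p = 0.906), against -0.28 on counts. RSEM's effective length of the gene, which divides the count in TPM, was 2969 and 2773 bases in AF, 2228 and 2001 bases in GF, and 2549 and 2166 bases in SPF. On that TPM scale the median of all genes tested in AF versus GF was also lower, at -0.42, against -0.02 with TMM-scaled counts. Mitochondrial transcripts, which enter the TPM total, took 35.3% and 28.7% of counts in AF, 17.9% and 32.1% in GF, and 18.1% and 27.2% in SPF.

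The promoters of Tlr3 and Myd88 are shown because these were the members best measured. Each line gives the 250 bases before the RefSeq start of the gene on GRCm38.p6, 5′ to 3′ on the strand of the gene, which is minus for both. Both windows lie inside the GENCODE gene, which begins further upstream, at 45411080 for Tlr3 and 119341411 for Myd88. For Tlr4 no window was available. Capitals mark the matches to 5 patterns searched on both strands: GGG, 2 free bases and TTTCC for NF-kB, GAAA, 2 free bases and GAAA for the interferon-stimulated response element, TTC, 3 free bases and GGAA for STAT factors, TGANTCA for AP-1 and CACGTG for E-box factors.
Tlr3, chr8:45410381-45410630: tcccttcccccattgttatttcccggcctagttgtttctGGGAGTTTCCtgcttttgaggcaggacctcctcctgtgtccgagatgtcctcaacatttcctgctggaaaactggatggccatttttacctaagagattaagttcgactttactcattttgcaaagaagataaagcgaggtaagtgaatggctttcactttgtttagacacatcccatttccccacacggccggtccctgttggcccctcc
Myd88, chr9:119340019-119340268: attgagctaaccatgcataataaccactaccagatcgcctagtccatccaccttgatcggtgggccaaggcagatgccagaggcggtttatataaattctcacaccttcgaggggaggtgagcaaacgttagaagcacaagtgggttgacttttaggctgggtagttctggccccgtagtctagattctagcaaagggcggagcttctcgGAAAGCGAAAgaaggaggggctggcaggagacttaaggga
The Tlr3 window held 1 match to the NF-kB pattern, 211 to 202 bases before the start, which 1.41% of 32817 mouse promoter windows of this length also hold. The Myd88 window held 1 match to the interferon pattern, 40 to 31 bases before the start, found in 2.97% of windows. Among the other windows, 8 for 6 genes, 1 of the 2 Tlr1 windows held the E-box pattern (6.02% of windows) and the Tlr9 window the AP-1 pattern (6.75%), and those of Tlr2, Tlr5, Nod1 and Nod2 held none of the 5 patterns. The pattern for STAT factors occurs in 3.27% of windows. A match in letters describes the sequence only, and whether a factor binds there was not measured.

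Tlr9, the endosomal receptor of unmethylated CpG DNA (chromosome 9, 106222598 to 106226883), had 0 counts in both AF libraries, 1 and 0 in GF, and 5 and 0 in SPF. Counts this low do not allow the groups to be compared. Unc93b1, the chaperone that carries TLR3, TLR7 and TLR9 to endosomes, was well measured at 28.4 and 28.9 CPM in AF, 23.2 and 49.6 CPM in GF, and 53.2 and 67.4 CPM in SPF. Both SPF libraries lay above the other 4, with a log2 fold change of -0.90 (SE 0.31) in the mean of AF and GF versus SPF (edgeR adjusted p = 0.395). The remaining nucleic acid receptors of the family were nearly silent, with at most 1 count of Tlr7 or Tlr8 and at most 2 of Tlr13 in any library.

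Nod1, the cytosolic receptor of peptidoglycan fragments that carry diaminopimelic acid (ENSMUSG00000038058, chromosome 6, 54923949 to 54972612), was the member with the lowest p in AF versus GF. It measured 1.18 and 1.90 CPM in AF, 3.5 and 4.48 CPM in GF, and 4.03 and 1.85 CPM in SPF. AF lay below GF without overlap, while the SPF libraries spanned the gap. Nod1 had a log2 fold change of -1.36 (SE 0.55) in AF versus GF, a 2.57-fold lower level (edgeR adjusted p = 1), -0.93 (SE 0.55) in AF versus SPF and 0.43 (SE 0.53) in GF versus SPF. Leaving out 1 library gave -1.77 to -1.06 in AF versus GF. On log2(TPM + 0.1) it was -1.04, with an effective length of 1560 bases in AF replicate 2 and 3564 to 4138 bases in the other 5 libraries. The AF libraries, lowest for Nod1 with SPF replicate 4, were also lowest in the sum of macrophage and dendritic cell markers, at 6.05 and 6.30 CPM in AF, 10.8 and 23.95 CPM in GF, and 17.7 and 10.1 CPM in SPF. Of those 10 markers, Adgre1 and Cx3cr1 were at 0 in AF replicate 3 and 0 were absent from the other libraries. The AF libraries were lowest in the T cell and intraepithelial lymphocyte sum too. The part of either kind of cell in the Nod1 values was not tested.

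Nod2, the receptor of muramyl dipeptide, known in mouse from Paneth and stem cells of the crypt (chromosome 8, 88647315 to 88688474), measured 1.26 and 0.535 CPM in AF, 0.766 and 1.36 CPM in GF, and 1.97 and 1.30 CPM in SPF. AF lay just below SPF, and GF overlapped both. Its log2 fold change was -0.89 (SE 0.68) in AF versus SPF and -0.64 (SE 0.67) in GF versus SPF, and neither passed (edgeR adjusted p = 0.668 and 0.847). In AF versus GF it was -0.24 (SE 0.69), and its sign turned without AF replicate 3 or GF replicate 3. SPF replicate 4, with 19 counts of Nod2, had the lowest Paneth marker sum, 41.7 CPM, and the part of Paneth cells in the Nod2 values was not tested.

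Myd88, the adaptor of most Toll-like receptors and of the receptors of IL-1 and IL-18 (ENSMUSG00000032508, chromosome 9, 119335934 to 119341411), varied least. It measured 22.1 and 19.9 CPM in AF, 21.8 and 24.02 CPM in GF, and 24.04 and 22.9 CPM in SPF, on 282 to 599 counts. AF lay just below SPF, and the other pairs of groups overlapped. Log2 fold changes were -0.16 (SE 0.19) in AF versus SPF, -0.12 (SE 0.19) in AF versus GF and -0.03 (SE 0.18) in GF versus SPF (edgeR adjusted p = 0.793, 1 and 0.966), and the sign in GF versus SPF turned when libraries were scaled by their totals alone. The exons of Myd88 overlap those of the opposite-strand gene Acaa1a, a peroxisomal thiolase, over 290 of 2576 bases. Acaa1a had 3053 to 7169 counts a library and no strand setting is given in the sources used here, so reads of the shared stretch cannot be told apart.

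**Figure D3:**
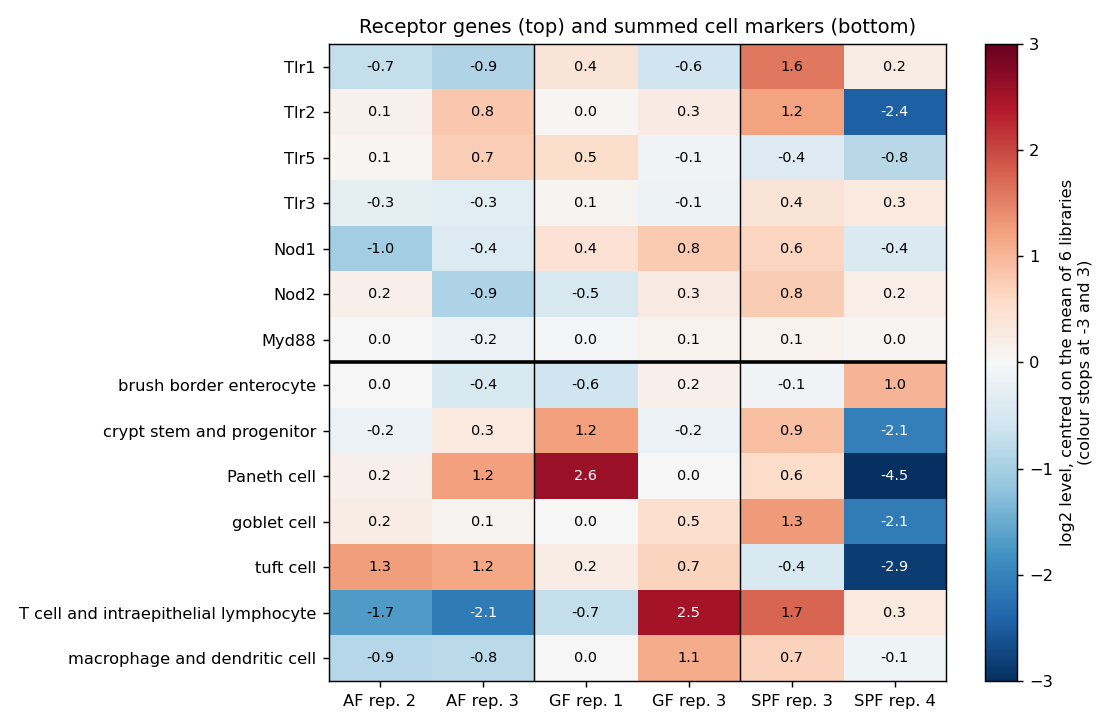
Log2 levels of the 7 tested genes (above the line, log2 CPM) and of 7 summed cell marker lists (below it), each centred on its mean over the 6 libraries, so that 0 is the average and 1 is a doubling; colours stop at -3 and 3. Tlr2 is low in SPF replicate 4 (-2.44), as are the Paneth (-4.50), goblet (-2.09), crypt (-2.06) and tuft cell sums (-2.86), while Tlr3 in that library is at 0.29 and Myd88 at 0.03.

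The genes whose pattern over the 6 libraries was most like that of a member were found by the root mean square difference of centred log2 CPM, among 8707 or 8708 genes with a mean of at least 5 CPM. Nearest to Tlr3 were Itga6, Fermt1 and Slc39a1, with differences of 0.048, 0.051 and 0.056. For Myd88 they were Blvrb, Huwe1 and Nipsnap3b (0.034, 0.042 and 0.047). Tlr5 was nearest to Pctp, Klf9 and Coq8a (0.11, 0.12 and 0.14), and Tlr2 to Fam174b, Myo5c and Gcnt3 (0.17, 0.27 and 0.27). The noisier Nod2 had Socs3, Ftl1-ps1 and Ext1 (0.24, 0.24 and 0.25), Tlr1 had Tgm2, B3gnt7 and Tfcp2l1 (0.30, 0.39 and 0.39), and Nod1 had Tppp, Sdf2l1 and Lcp1 (0.31, 0.31 and 0.32). With 6 libraries and this many candidates such neighbours are a description of these libraries.

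Across the wider pathway, 118 further genes were listed in 8 groups by role, and 89 of them passed the low-count filter. edgeR called 0 of the 89 in each comparison. In the mean of AF and GF versus SPF, 63 of the 89 had lower values (49.3% of all genes did) and 26 higher. Their median was -0.30 on the log2 scale, beside 0.01 over all genes tested. At an unadjusted p below 0.05, 20 were lower and 3 higher, beside 6.79% and 4.76% of all genes. The 7 tested members had a median of -0.25, with 6 lower and 1 higher. In AF versus GF, 49 of the 89 were lower (52.9% of all genes were) and the median was -0.03, beside -0.02 over all genes.

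**Figure D4:**
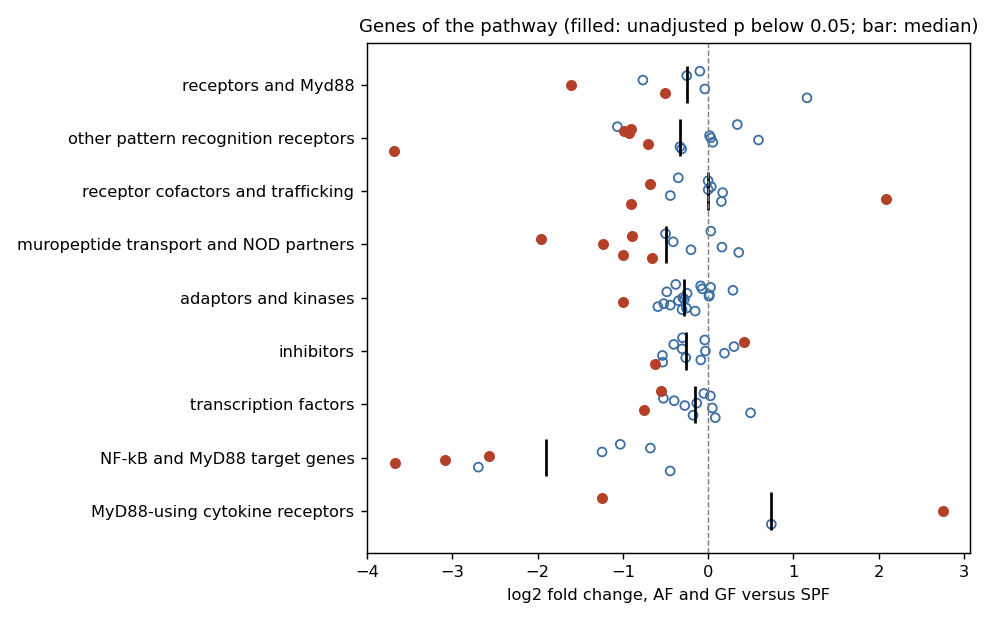
Log2 fold changes from edgeR in the mean of AF and GF versus SPF, 1 point a gene, for the 7 tested receptor and adaptor genes (top row) and 89 further genes of the pathway in 8 groups; filled points have an unadjusted p below 0.05, bars are medians and 0 means equal levels. The genes listed as targets have the lowest median, -1.91, and all 8 tested lie left of 0, as 49.3% of all genes do. The fitted values of Pglyrp2 and Tnf depend on AF libraries with 0 counts.

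The list of NF-kB and MyD88 target genes had the lowest median. Of its 17 genes 8 were tested, and all 8 were lower in the mean of AF and GF than in SPF (49.3% of all genes). At an unadjusted p below 0.05, 3 were lower (6.79% of all genes) and 0 higher (4.76%). The list does not hold every target of NF-kB, and genes placed in other lists by role were not counted in it. Genes of those lists went both ways in the mean of AF and GF versus SPF. Nfkbia had 0.42 (SE 0.17) and Nfkb2 0.05 (SE 0.22), against -0.09 (SE 0.17) for Tnfaip3 and -0.89 (SE 0.26) for Birc3. Reg3g, an antibacterial lectin of the epithelium, measured 30.9 and 38.4 CPM in AF, 216 and 237 CPM in GF, and 1576 and 685.5 CPM in SPF. Its groups did not overlap in any comparison, and its log2 fold change was -3.67 (SE 0.38) in the mean of AF and GF versus SPF (edgeR adjusted p = 0.143). Its relative Reg3b measured 128 and 169 CPM in AF, 342 and 418 CPM in GF, and 2962 and 1076 CPM in SPF. Il1b, a cytokine mostly of myeloid cells, had 0 and 2 counts in AF, 13 and 20 in GF, and 23 and 29 in SPF, beside the macrophage marker sums given above. Tnf had 0 counts in both AF libraries, against 12 and 8 in GF and 14 and 1 in SPF. Its mean CPM was 2.37-fold the mean floor of 3 counts per AF library in GF and 1.71-fold in SPF. These folds leave out the counting error of GF and SPF. Among the 9 targets that missed the filter, Cxcl1, Cxcl2, Il6, Ccl2 and Lcn2 had at most 8 counts in any library.

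Some cytosolic sensors outside the 9 genes were abundant. Per length, Naip5, which binds flagellin, stood at 86.7 and 97.0 TPM in AF, 92.6 and 80.4 TPM in GF, and 65.9 and 66.0 TPM in SPF, against at most 0.39 TPM of Tlr5, which reads the same protein outside the cell. In CPM, the scale used between libraries, GF and SPF overlapped for Naip5, with a log2 fold change of 0.34 (SE 0.38). AF lay above SPF, at 0.84 (SE 0.39, edgeR adjusted p = 0.477). The 4 Naip genes are close paralogs, though RSEM's uncertainty was at most 0.83% of their counts. Of the 22 other pattern recognition receptors, 13 were tested. At an unadjusted p below 0.05 in the mean of AF and GF versus SPF, 5 were lower (6.79% of all genes) and 0 higher (4.76%). The RNA sensors Ddx58 (RIG-I), Dhx58 and Ifih1 (MDA5) were 3 of these 5. Ddx58 measured 37.1 and 30.2 CPM in AF, 37.3 and 47.1 CPM in GF, and 53.0 and 87.7 CPM in SPF (log2 fold change -0.90, SE 0.25, edgeR adjusted p = 0.38). Dhx58 and Ifih1 had -0.98 (SE 0.27) and -0.92 (SE 0.29). Ifih1 measured 64.2 and 46.6 CPM in AF, 37.6 and 51.8 CPM in GF, and 68.6 and 120.2 CPM in SPF. Pglyrp2, which cleaves peptidoglycan, had 0 counts in AF, 3 and 14 in GF, and 22 and 7 in SPF. Its mean CPM was 2.56-fold the mean floor of 3 counts per AF library in GF and 3.59-fold in SPF. Counting error of GF and SPF is left out of these folds. Naip1 was higher in AF than in GF, at 54.3 and 51.0 against 40.1 and 27.1 CPM (edgeR adjusted p = 1).

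In the mean of AF and GF versus SPF, 8 of 11 tested partners of the NOD receptors and carriers of their ligands were lower (49.3% of all genes). At an unadjusted p below 0.05, 5 were lower (6.79% of all genes) and 0 higher (4.76%). Card9, an adaptor that works with NOD2 in myeloid cells, measured 0.471 and 0.951 CPM in AF, 2.01 and 1.83 CPM in GF, and 4.03 and 5.21 CPM in SPF (log2 fold change -1.97, SE 0.41, edgeR adjusted p = 0.374). Nlrx1, a mitochondrial member of the NOD-like family, measured 4.79 and 5.05 CPM in AF, 4.56 and 9.09 CPM in GF, and 11.7 and 15.5 CPM in SPF. The ubiquitin ligases Xiap and Birc3, which act on RIPK2, had log2 fold changes of -0.63 (SE 0.22) and -0.85 (SE 0.31) in GF versus SPF. Birc3 measured 19.8 and 16.5 CPM in AF, 18.4 and 19.9 CPM in GF, and 24.5 and 44.7 CPM in SPF. Slc15a1, the peptide transporter PepT1, which also carries muramyl dipeptide, measured 161 and 106 CPM in AF, 225 and 283 CPM in GF, and 155 and 269 CPM in SPF. Its log2 fold change was -0.93 (SE 0.38) in AF versus GF (edgeR adjusted p = 1).

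Of 19 tested adaptors and kinases 15 were lower in the mean of AF and GF than in SPF (49.3% of all genes). The median difference was -0.28 on the log2 scale. At an unadjusted p below 0.05, 1 was lower (6.79% of all genes) and 0 higher (4.76%). That gene was Tab3, a partner of the kinase TAK1, with 5.18 and 5.05 CPM in AF, 7.76 and 6.51 CPM in GF, and 9.53 and 14.8 CPM in SPF (log2 fold change -1.0, SE 0.27). Its relative Tab2 had -0.35 (SE 0.14), Tirap, which brings MyD88 to TLR2 and TLR4, -0.66 (SE 0.34) in GF versus SPF, and Irak4, the first kinase of the MyD88 complex, 0.32 (SE 0.23) in AF versus GF. Of 13 tested inhibitors 10 were lower in the mean of AF and GF versus SPF (49.3% of all genes). At an unadjusted p below 0.05, 1 was lower (6.79% of all genes) and 1 higher (4.76%). The higher one was Nfkbia, the NF-kB inhibitor. Nfkbia measured 61.1 and 64.7 CPM in AF, 75.3 and 75.2 CPM in GF, and 47.5 and 55.6 CPM in SPF (log2 fold change 0.54, SE 0.19, in GF versus SPF; edgeR adjusted p = 0.738). Tollip had -0.62 (SE 0.25) in the mean of AF and GF versus SPF, with SPF replicate 4 far above the rest. Its levels were 48.7 and 40.5 CPM in AF, 44.0 and 47.4 CPM in GF, and 50.9 and 87.8 CPM in SPF. The deubiquitinases Tnfaip3 and Cyld had -0.50 (SE 0.20) in AF versus GF and -0.42 (SE 0.21) in AF versus SPF.

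Among 12 tested transcription factors 8 were lower in the mean of AF and GF than in SPF (49.3% of all genes). At an unadjusted p below 0.05, 0 were higher (4.76% of all genes) and 2 lower (6.79%). These were Nfkbiz, an NF-kB cofactor, at -0.75 (SE 0.22), and Cebpb at -0.55 (SE 0.20). Nfkb1 had -0.37 (SE 0.25) in GF versus SPF, and Irf7, of the interferon pathway, 0.54 (SE 0.50) in AF versus GF. Of the cofactors and trafficking genes, 5 of 10 tested were lower in the mean of AF and GF than in SPF (49.3% of all genes). Scarb1, a lipoprotein and carotenoid receptor that can also bind lipopolysaccharide, measured 730.5 and 557.7 CPM in AF, 6.60 and 16.2 CPM in GF, and 9.57 and 30.9 CPM in SPF. Cd36, a fatty acid carrier and partner of TLR2, measured 11.1 and 7.73 CPM in AF, 32.4 and 36.1 CPM in GF, and 22.2 and 35.4 CPM in SPF. Their log2 fold changes in AF versus GF, 5.83 (SE 0.79) and -1.87 (SE 0.31), did not pass over all genes (edgeR adjusted p = 0.563 and 0.903), and Ap3b1 had -0.38 (SE 0.21) in GF versus SPF.

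Of 8 genes of the receptors that share MyD88, 3 were tested. Il18r1, the receptor of IL-18, measured 1.34 and 2.38 CPM in AF, 1.28 and 3.12 CPM in GF, and 0.366 and 0.206 CPM in SPF, with all 4 libraries of AF and GF above both of SPF (log2 fold change 2.76, SE 0.71, edgeR adjusted p = 0.38). Il18bp, the soluble inhibitor of IL-18, measured 6.52 and 7.01 CPM in AF, 2.95 and 8.89 CPM in GF, and 11.9 and 18.2 CPM in SPF (log2 fold change -1.25, SE 0.45). Il1rap, a shared subunit of IL-1 family receptors, had 0.45 (SE 0.55) in AF versus GF. Il18r1, like Tlr5, thus had higher values without a microbiota, and neither passed the test over all genes.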

How the data were processed

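RNA from 6 libraries (AF, GF and SPF, 2 each) was analysed as the authors deposited it. Per the labels' protocols, sorted cells gave RNA by RNeasy columns and libraries by a TruSeq RNA kit. The submitters' processing notes name GRCm38 as the build and, as tools, RSEM, edgeR 3.16.5 and STAR 2.5.2b; annotation release and strand setting were not given in the sources used here. Per the file headers, the authors deposited RSEM expected counts, which share reads between genes by estimate, and TPM. The same headers give effective lengths and the posterior standard deviation of each count, which the authors deposited beside them.

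Symbols and positions came from GENCODE M21 (GRCm38), which matched 51633 of 51912 IDs; promoters came from RefSeq (GRCm38.p6). Expected counts were rounded (23.5% of values above 0 were not whole). edgeR 4.0.16 in R 4.3.3 tested 13644 genes past filterByExpr with TMM scaling and the quasi-likelihood F test, all 6 libraries in 1 fit with 3 residual degrees of freedom and a common biological coefficient of variation of 0.368. P-values were adjusted by Benjamini-Hochberg over all genes. Each standard error is the size of the log2 fold change over the square root of its F value. DESeq2 1.42.0 and limma 3.58.1 served the alternatives, and the fit was tested on simulated data. Replicates differed far beyond sampling noise (chi-square per gene 44.6 in AF, 239 in GF and 195 in SPF), so none was counted as a duplicate.

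All 9 members are named; of each pathway list, the 2 genes with the smallest p in each comparison, any called gene, and a few others chosen after their values were seen. The members and lists were chosen with earlier results of these data known.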

Additional observations from a re-analysis of the deposited data

How the results depend on the processing

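The count of members called stayed at 0 in each of the 4 contrasts and in the test for any difference, under DESeq2, the likelihood ratio test, median-of-ratios scaling, library totals, limma on log2(TPM + 1) and log2(TPM + 0.1), omission of the low-count filter or its replacement by 1 CPM in 2 libraries, fits of only the groups compared (for the pairs of groups), an adjusted p below 0.1, and each library left out in turn. Of the alternative fold changes of single members, 378 kept their sign and 24 turned. For Tlr2 these were -0.020 on log2(TPM + 0.1) in AF versus GF, -0.20 with library totals and -0.058 on log2(TPM + 1) in AF versus SPF, 0.25 on log2(TPM + 0.1) in GF versus SPF, and 0.0049 with DESeq2 and 0.24 on log2(TPM + 0.1) in the mean of AF and GF versus SPF. For Tlr5 in AF versus GF they were -0.15 with library totals, -0.040 on log2(TPM + 1) and -0.081 on log2(TPM + 0.1), and for Myd88 in GF versus SPF 0.086 with library totals. With 1 library left out, Tlr2 ranged from -0.040 to 0.76 (AF versus GF), -0.76 to 6.72 (AF versus SPF), -1.20 to 6.28 (GF versus SPF) and -0.98 to 6.50 (mean of AF and GF versus SPF). Tlr5 ranged from -0.26 to 0.68 and Nod2 from -0.97 to 0.24 in AF versus GF, Nod1 from -0.026 to 1.10 and Myd88 from -0.11 to 0.027 in GF versus SPF, and Nod1 from -0.70 to 0.42 in the mean of AF and GF versus SPF. The causes were not tested, and the values above 6 are fitted against 0 counts in SPF replicate 4. Library totals alone moved the median of all genes to -0.38, -0.20 and 0.16 in AF versus GF, AF versus SPF and GF versus SPF.

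Counts of all genes called depended on the tool. edgeR's quasi-likelihood test called 2 in AF versus GF, 6 in AF versus SPF, 2 in GF versus SPF and 4 in the mean of AF and GF versus SPF. In the same order DESeq2 called 51, 272, 80 and 248, the likelihood ratio test 53, 298, 97 and 269, no filter gave 264, 804, 484 and 838, and leaving out SPF replicate 3 gave 9, 625, 369 and 1063. Leaving out SPF replicate 4 gave 7, 13, 2 and 9, either GF library 0, 2, 0 and 0, and either AF library 0 in each, so that 0 members called says nothing of stability where so few genes of any kind were called. In AF versus GF 1 was lower and 1 higher, against 1 and 3 with library totals. No paired analysis was done, because the library titles do not say that a replicate number shared between groups marks a pair. A library left out leaves its group with 1 library, assumed to vary like the others. At 0 to 28 counts, differences in Tlr2, Tlr4, Tlr5 and Tlr9 smaller than their counting intervals were not detectable at this depth. The same limit holds where other members had low counts, down to 7 for Tlr1, 9 for Nod2 and 15 for Nod1.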
